A study of Mus musculus with 9 samples.

Results

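The 10 chemokine genes Ccl2, Ccl3, Ccl4, Ccl6, Ccl7, Ccl9, Ccl22, Ccl24, Cxcl2 and Cxcl16 were followed in mouse bone marrow-derived macrophages given interleukin-27 (IL-27) or interleukin-4 (IL-4) and in untreated macrophages. They were taken by name from the gene column of the deposited count table and are 10 of its 16200 genes. All 9 libraries are polyA RNA of wild-type macrophages, grown from marrow for 6 days with 10% L929 supernatant, a source of macrophage growth factor. There were 3 libraries of cells given IL-27 (100 ng/ml, 6 h), 3 of cells given IL-4 (20 ng/ml, 12 h) and 3 of untreated cells. The labels give no strain, sex or age, no batch or date, and do not say whether the cells given IL-27 also received IL-4. Dose and time differed between the cytokines, so in IL-27 over IL-4 the agent, its dose and its time cannot be told apart. No time is given for the untreated cells, the reference for both cytokines. Whether they match either treatment in time cannot be told. No label ties a library to an animal or a culture, so the p-values below measure no more than how these libraries vary, and that variation may be technical.

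Chemokines are small secreted proteins that draw leukocytes along a gradient by binding G-protein-coupled receptors, and most are named after the spacing of their first cysteines (CC or CXC). Macrophages are a major source of them, and inflammatory signals through NF-kappa-B and interferon-type signals through STAT and IRF factors are known to set which ones a macrophage makes. Several ligands share a receptor. Ccl2 and Ccl7 bind Ccr2, which brings monocytes out of marrow and into tissue, and Ccl3, Ccl6, Ccl7 and Ccl9 bind Ccr1. Ccl22 binds Ccr4 on T cells, Ccl24 binds Ccr3 on eosinophils, Cxcl2 binds Cxcr2 on neutrophils, and Cxcl16 is made as a membrane protein that binds Cxcr6.

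Total counts were 34577188 to 37951827 per library, with 14001 to 14326 genes detected. Macrophage markers were all present, with summed levels of 29638 to 31529 CPM (counts scaled to library size) in IL-27 libraries, 23149 to 27268 CPM in IL-4 libraries and 29274 to 35994 CPM in untreated libraries, with Lyz2 the most abundant in each group. Single markers did differ between groups. Of the 10, 0 were higher and 6 lower in IL-27 over untreated, 1 was higher and 4 lower in IL-4 over untreated, and 3 were higher and 5 lower in IL-27 over IL-4. Csf1r, the receptor of the macrophage growth factor, was 1.93-fold lower (edgeR adjusted p = 0.00115) and Mertk 2.25-fold lower (edgeR adjusted p = 9.97e-06) in IL-27 than in untreated libraries, and the part of these differences in the results on the chemokines was not tested. Untreated replicate 2 and IL-4 replicate 1 stood apart from the other libraries of their groups in the same way (r = 0.90 between their deviations over 9553 genes). Genes of low GC content were lower in them than in the other libraries of their group, by a median log2 difference of -0.65 in IL-4 replicate 1 and -0.62 in untreated replicate 2 for the tenth of genes with the lowest GC. Counts of called genes below are therefore also given without both libraries. For the macrophage markers they were then 3 higher and 7 lower in IL-27 over untreated, 3 and 6 in IL-4 over untreated, and 4 and 6 in IL-27 over IL-4. Of all tested genes 29.2%, 25% and 39.8% were called in these comparisons with all libraries, and 49.5%, 46.4% and 58.3% without both. Levels are TMM-normalised CPM unless FPKM is named, and a gene is called where the edgeR adjusted p (Benjamini-Hochberg, over 12587 genes) is under 0.05.

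All 10 chemokines passed the filter on low counts, and 8 of them exceeded its cutoff of 0.271 CPM in all 9 libraries. Ccl24 exceeded it in the 3 IL-4 libraries and in no other library. Cxcl2 exceeded it in 2 IL-27 libraries, no IL-4 library and 3 untreated libraries. These genes therefore entered the test through the group or groups where they are high, and the counts of 8 that follow leave them out.

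IL-27 and IL-4 gave different chemokine profiles. In IL-27 over untreated, Ccl6, Ccl22 and Cxcl16 rose (3 of 10, against 14% of all tested genes), Ccl4 fell (1 of 10, against 15.1%), and 6 were not called. The share called, 4 of 10, was near the 29.2% of all tested genes. All 4 were among the 8 chemokines above the cutoff in every library, and of all genes above it in every library 30.4% were called. In IL-4 over untreated, Ccl2, Ccl7, Ccl9 and Ccl22 rose (4 of those 8, against 12.9% of all tested genes). Ccl3 and Cxcl16 fell (2 of those 8, against 12%). Ccl24 was also called higher and Cxcl2 lower. Among the 8 chemokines above the cutoff in every library 6 were called, against 26.3% of all such genes and 25% of all tested genes. The calls of Ccl24 and Cxcl2 rest on few counts and are not counted in the 6. In IL-27 over IL-4, Ccl3, Ccl6 and Cxcl16 were higher (3 of those 8, against 18.8% of all tested genes). Ccl2, Ccl7 and Ccl9 were lower (3 of those 8, against 21%). Cxcl2 was also called higher and Ccl24 lower. Here too 6 of the 8 above the cutoff in every library were called, against 41% of all such genes and 39.8% of all tested genes. The call between the cytokines was lost in 3 of 15 alternative settings for Ccl24 and in 6 of 14 for Cxcl2. Ccl22 alone of the 10 rose over untreated with each cytokine, and without untreated replicate 2 and IL-4 replicate 1 Ccl6 and Ccl7 did too. The comparisons with untreated share the 3 untreated libraries, and the difference between the cytokines is the one tested in IL-27 over IL-4.

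The median log2 fold change of the 8 above the cutoff in every library was 0.26 in IL-27 over untreated, 0.42 in IL-4 over untreated and 0.00 in IL-27 over IL-4, against 0.00, 0.00 and -0.01 for all such genes in the same comparisons. Without untreated replicate 2 and IL-4 replicate 1, 6 of these 8 were called in IL-27 over untreated (49.5% of all tested genes), 7 in IL-4 over untreated (46.4%) and 6 in IL-27 over IL-4 (58.3%). The groups did not overlap for 5 of the 8 in IL-27 over untreated (52.2% of all tested genes), 7 in IL-4 over untreated (36%) and 6 in IL-27 over IL-4 (56.7%). These shares of all tested genes include genes below the cutoff in some libraries, unlike the 8. RNA of a bulk culture was measured, so fewer cells of a type and less RNA per cell cannot be told apart.

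Most tested markers of fibroblasts and endothelium were higher with IL-27, as were Ccl6, Ccl22 and Cxcl16, though Ccl22 was also higher with IL-4. All 10 of these markers had a count in each group, and their summed level was 1057 to 1319 CPM in IL-27 libraries, 548 to 693 CPM in IL-4 libraries and 682 to 811 CPM in untreated libraries. The most abundant was Col1a2, at 617 CPM in IL-27 libraries, 320 CPM in IL-4 libraries and 382 CPM in untreated libraries. Of the 9 tested, 6 were higher and 1 lower in IL-27 over untreated, 1 was higher and 1 lower in IL-4 over untreated (1 and 5 without untreated replicate 2 and IL-4 replicate 1), and 7 were higher and 1 lower in IL-27 over IL-4. Of all tested genes 29.2%, 25% and 39.8% were called in the same order. Pecam1 went against the others, 2.96-fold lower in IL-27 than in untreated libraries (edgeR adjusted p = 0.00202). It was 2.87-fold higher in IL-4 than in untreated libraries (edgeR adjusted p = 0.00163). The part of these markers in the results on these chemokines, and on Cxcl12 and Cxcl14, was not tested.

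**Figure D1:**
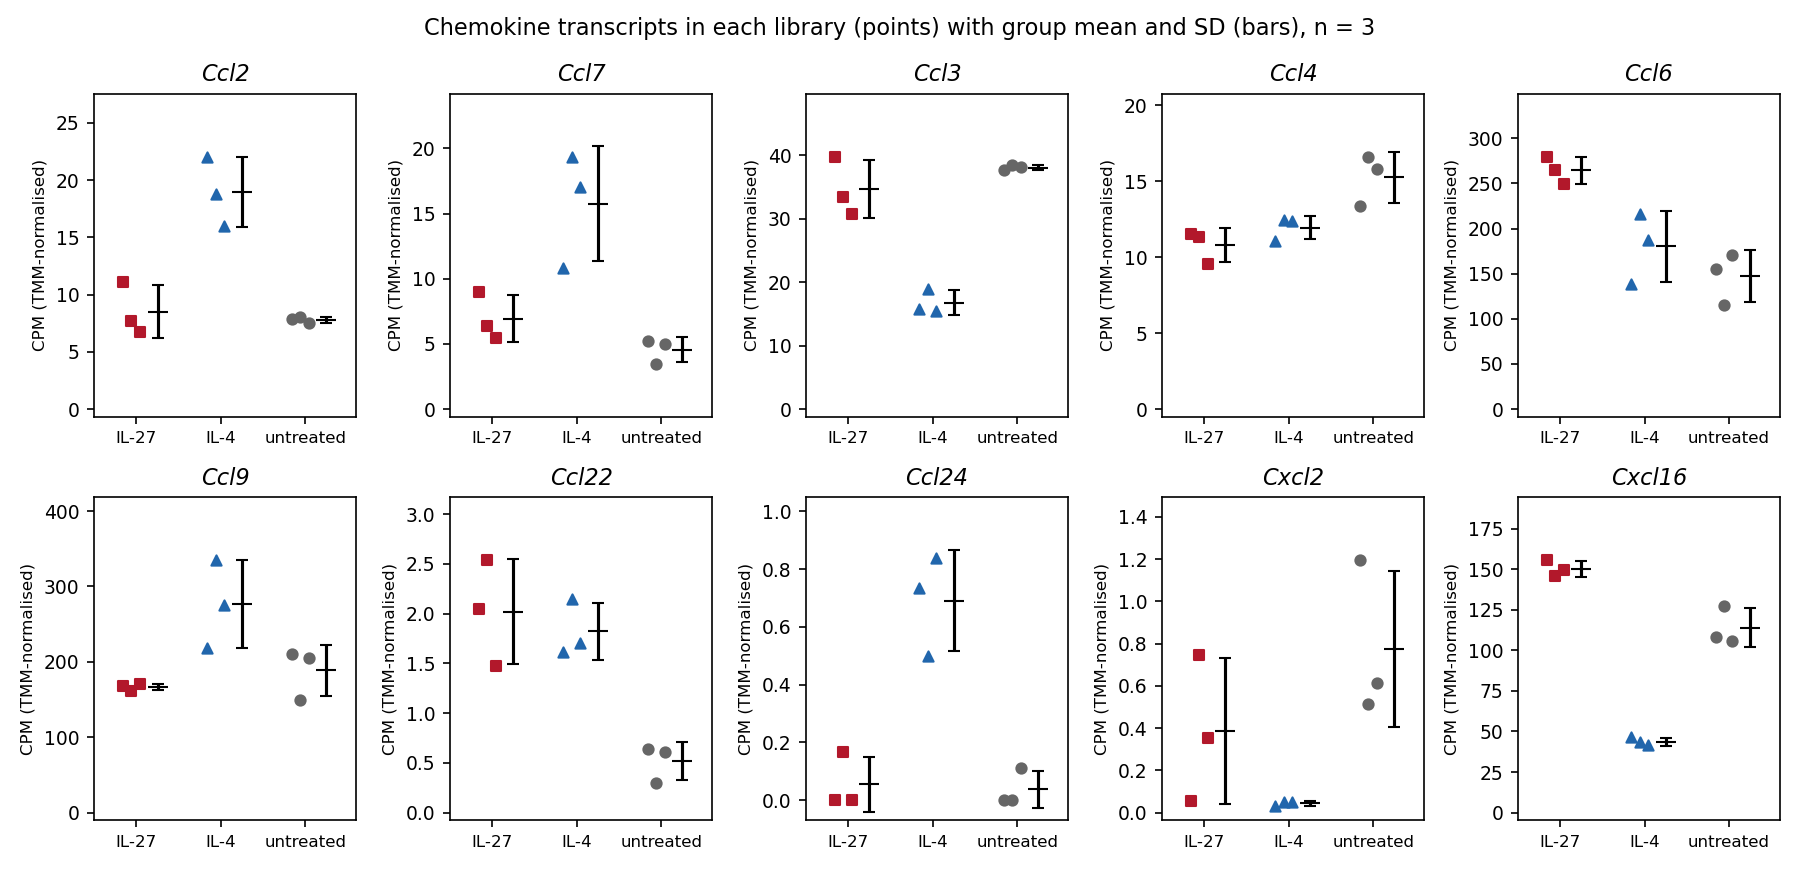
TMM-normalised CPM (linear axes, 1 panel a gene) of the 10 chemokines in the IL-27, IL-4 and untreated libraries. Points are libraries and bars are the group mean with SD, n = 3. Ccl2, Ccl7, Ccl9 and Ccl24 are highest in the IL-4 libraries, Ccl6 and Cxcl16 in the IL-27 libraries, and Ccl22 is lowest in the untreated libraries.

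**Figure D2:**
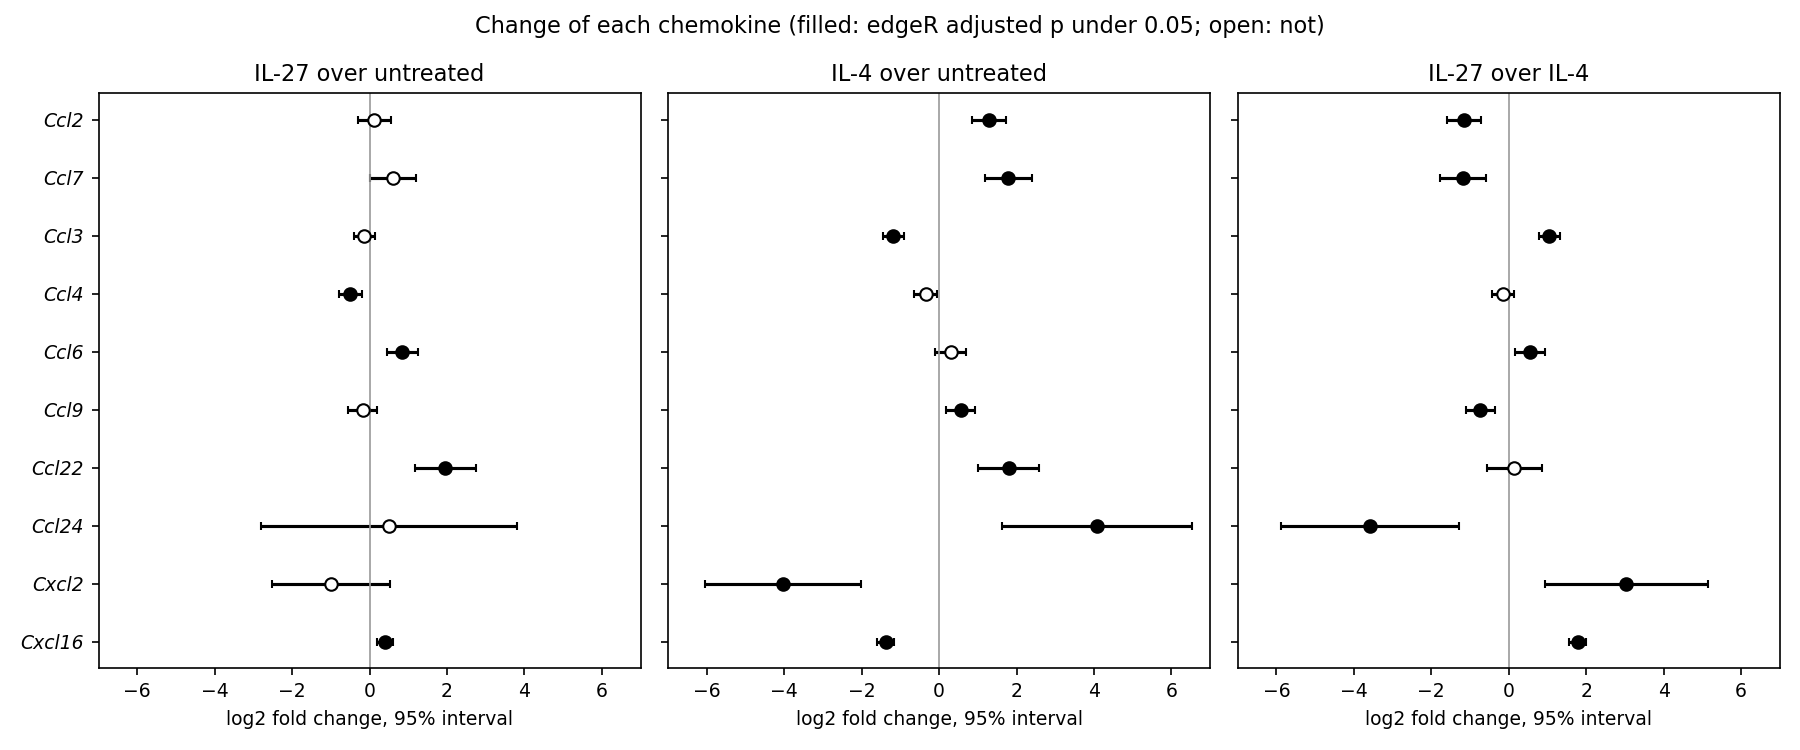
Log2 fold change of each chemokine in the 3 comparisons, with its 95% interval from the edgeR fit. Filled points passed an adjusted p of 0.05 and open points did not. The intervals of Ccl24 and Cxcl2, which rest on few counts, are the widest.

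The Ccr2 ligands rose with IL-4. Ccl2 (NCBI gene 20296), the main monocyte attractant, stood at 11.1, 7.70 and 6.70 CPM in IL-27 libraries, 22.1, 18.8 and 16 CPM in IL-4 libraries and 7.84, 8.01 and 7.53 CPM in untreated libraries. Each IL-4 library was above every library of the other groups, while the IL-27 libraries spanned the untreated ones. Ccl2 was 2.43-fold higher in IL-4 than in untreated libraries (log2 1.28 ± 0.19 SE, edgeR adjusted p = 0.00103) and 2.23-fold lower in IL-27 than in IL-4 libraries (log2 -1.16 ± 0.19, edgeR adjusted p = 0.000944). Its log2 fold change in IL-27 over untreated was 0.12, with a 95% interval of -0.31 to 0.56, and the edgeR adjusted p was 0.668.

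Ccl7 (NCBI gene 20306), which binds Ccr1 and Ccr3 as well as Ccr2, had 9.0, 6.37 and 5.47 CPM in IL-27 libraries, 10.8, 19.4 and 17.1 CPM in IL-4 libraries and 5.23, 3.46 and 4.97 CPM in untreated libraries. The 3 groups did not overlap, with IL-4 the highest and untreated the lowest. Ccl7 was 3.46-fold higher in IL-4 than in untreated libraries (log2 1.79 ± 0.27, edgeR adjusted p = 0.000973) and 2.27-fold lower in IL-27 than in IL-4 libraries (log2 -1.18 ± 0.26, edgeR adjusted p = 0.00515). The log2 fold change of 0.61 ± 0.27 in IL-27 over untreated was not called (edgeR adjusted p = 0.117). Untreated replicate 2 and IL-4 replicate 1 held the lowest Ccl7 of their groups, and without both libraries that last difference passed the test at a log2 fold change of 0.44 (edgeR adjusted p = 0.0382).

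The neighbouring genes Ccl3 and Ccl4, both inflammatory chemokines, parted. Ccl3 (NCBI gene 20302), a ligand of Ccr1, had 39.8, 33.4 and 30.8 CPM in IL-27 libraries, 15.8, 19.0 and 15.5 CPM in IL-4 libraries and 37.7, 38.4 and 38.1 CPM in untreated libraries. The IL-4 libraries lay below all others, and the untreated ones fell within the range of the IL-27 ones. Ccl3 was 2.27-fold lower in IL-4 than in untreated libraries (log2 -1.18 ± 0.12, edgeR adjusted p = 0.000103) and 2.07-fold higher in IL-27 than in IL-4 libraries (log2 1.05 ± 0.12, edgeR adjusted p = 9.13e-05). Between IL-27 and untreated libraries its log2 fold change was -0.13, with a 95% interval of -0.40 to 0.13 (edgeR adjusted p = 0.437).

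Ccl4 (NCBI gene 20303), which lies next to Ccl3, had 11.5, 11.3 and 9.55 CPM in IL-27 libraries, 11.1, 12.4 and 12.4 CPM in IL-4 libraries and 13.3, 16.6 and 15.8 CPM in untreated libraries. The untreated libraries were above all others, and the cytokine groups overlapped. Ccl4 was 1.41-fold lower in IL-27 than in untreated libraries (log2 -0.50 ± 0.13, edgeR adjusted p = 0.0176). The adjusted p of that difference was 0.0737 without IL-27 replicate 3 and 0.0548 without untreated replicate 3 (edgeR), which ended the call. In IL-4 over untreated its log2 fold change was -0.35 ± 0.13 (edgeR adjusted p = 0.0787, DESeq2 adjusted p = 0.0451). In IL-27 over IL-4 the 95% interval of its log2 fold change was -0.44 to 0.15 (edgeR adjusted p = 0.41).

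Ccl6 and Ccl9 are mouse CC ligands of Ccr1 with no direct human counterpart, and they gave opposite results between the cytokines. Ccl6 (NCBI gene 20305) had 279.7, 265 and 249 CPM in IL-27 libraries, 138, 216 and 188 CPM in IL-4 libraries and 156, 115 and 171 CPM in untreated libraries. The IL-27 libraries were above all others, and the other groups overlapped. Ccl6 was 1.80-fold higher in IL-27 than in untreated libraries (log2 0.84 ± 0.18, edgeR adjusted p = 0.00557) and 1.47-fold higher in IL-27 than in IL-4 libraries (log2 0.55 ± 0.18, edgeR adjusted p = 0.031). In IL-4 over untreated the log2 fold change was 0.29, with a 95% interval of -0.10 to 0.69 (edgeR adjusted p = 0.263).

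Ccl9 (NCBI gene 20308) had 168, 161 and 170.2 CPM in IL-27 libraries, 218, 335 and 276 CPM in IL-4 libraries and 211, 149 and 205 CPM in untreated libraries. The IL-4 libraries were above all others, although IL-4 replicate 1 exceeded untreated replicate 1 by little, and the IL-27 libraries lay within the untreated range. Ccl9 was 1.66-fold lower in IL-27 than in IL-4 libraries (log2 -0.73 ± 0.17, edgeR adjusted p = 0.0061) and 1.47-fold higher in IL-4 than in untreated libraries (log2 0.55 ± 0.17, edgeR adjusted p = 0.0356). For IL-27 over untreated its log2 fold change was -0.18, with a 95% interval of -0.55 to 0.19 (edgeR adjusted p = 0.456).

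The libraries that stood apart were the lowest of their groups for Ccl6 and Ccl9, and their part in the results was measured by leaving them out. Ccl6 deviated by -0.54 (log2) in IL-4 replicate 1 and by -0.50 in untreated replicate 2 from the other libraries of the group, and Ccl9 by -0.48 in each. Their transcripts hold 45.1% and 42.1% GC, against a median of 49.5% over genes. Among other chemokines, Ccl7 (42.9% GC) deviated by -0.75 in IL-4 replicate 1 and -0.55 in untreated replicate 2. In the same libraries Ccl2 (44.3% GC) deviated by 0.34 and 0.06 and Ccl3 (46.2% GC) by -0.11 and 0.02. Cxcl2 (45.0% GC), with few counts, deviated by -0.32 and -0.69. The part of GC in these deviations was not tested. Without both libraries Ccl6 was called in IL-4 over untreated (log2 0.31, edgeR adjusted p = 0.000282) and Ccl9 in IL-27 over untreated (log2 -0.33, edgeR adjusted p = 4.48e-05). The call of Ccl9 in IL-4 over untreated was lost in 9 of 16 alternative settings, with an edgeR adjusted p of up to 0.124. It was lost with the 2 groups alone in the fit, with the replicate block, without any 1 of the IL-27 libraries, and without IL-4 replicate 2 or 3 or untreated replicate 2 or 3. The call of Ccl6 in IL-27 over IL-4 was lost in 6 of 16 settings, among them without any 1 of the IL-27 libraries and without IL-4 replicate 1 or 3, with an edgeR adjusted p of up to 0.0978.

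Ccl9, Ccl6, Ccl3 and Ccl4 follow each other on chromosome 11 with 0 other coding genes between them, as Ccl2 and Ccl7 do elsewhere on the chromosome, by gene order in RefSeq. The promoters of the neighbours Ccl6 and Ccl9 are shown because the genes share a receptor and gave opposite results in IL-27 over IL-4. The sequences are RefSeq's, build GRCm38.p6, minus strand, at chr11:83593038-83593337 for Ccl6 and chr11:83578587-83578886 for Ccl9, 250 bases before to 50 bases after the gene's start. Capitals mark runs of at least 10 bases that occur in both.
Ccl6: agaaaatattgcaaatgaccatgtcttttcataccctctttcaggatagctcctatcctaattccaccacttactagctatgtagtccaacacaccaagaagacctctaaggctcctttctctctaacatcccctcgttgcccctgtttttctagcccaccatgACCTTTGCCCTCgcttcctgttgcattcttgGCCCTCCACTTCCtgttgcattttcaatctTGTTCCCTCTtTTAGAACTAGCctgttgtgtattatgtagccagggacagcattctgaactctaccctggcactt
Ccl9: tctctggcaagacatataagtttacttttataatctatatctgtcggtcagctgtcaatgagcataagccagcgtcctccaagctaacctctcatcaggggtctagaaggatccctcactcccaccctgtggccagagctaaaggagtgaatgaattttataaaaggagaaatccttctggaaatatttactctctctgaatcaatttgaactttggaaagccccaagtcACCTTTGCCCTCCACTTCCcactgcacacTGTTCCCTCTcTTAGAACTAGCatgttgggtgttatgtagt
The longest shared run is 13 bases, and it starts 55 bases before the Ccl6 start and 14 bases before the Ccl9 start. The best local alignment of the windows had 161 identical bases in 298 aligned columns (54.0%). No other pair of windows was compared, so how common such a share or such runs are between promoters was not measured. The Ccl9 window holds the TATA box letters TATAAA 92 to 87 bases before the start, and on the opposite strand 224 to 219 and 94 to 89 bases before it. Of 32851 RefSeq promoter windows 13.6% hold these letters on either strand. The Ccl9 window also holds a kappa-B match on the opposite strand 35 to 26 bases before the start, a motif held by 4.51% of windows. The Ccl6 window holds neither, and no match to the STAT6-type motif TTCNNNNGAA or the interferon-type GAS motif TTCNNNGAA, held by 6.95% and 8.3% of windows, was in either window. Such matches describe letters and show no binding. The sources used here do not say how reads shared by related genes, or by overlapping genes on opposite strands, were counted, so counts of close relatives such as Ccl6 and Ccl9 or Ccl3 and Ccl4 could include reads of the other.

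Ccl22 and Ccl24, chemokines often linked to type 2 immunity, were scarce. Ccl22 (NCBI gene 20299) had 2.05, 2.54 and 1.48 CPM in IL-27 libraries, 1.61, 2.15 and 1.70 CPM in IL-4 libraries and 0.640, 0.301 and 0.614 CPM in untreated libraries. Every library of the cytokine groups was above every untreated library, and the cytokine groups overlapped. Ccl22 was 3.86-fold higher in IL-27 than in untreated libraries (log2 1.95 ± 0.35, edgeR adjusted p = 0.00243) and 3.49-fold higher in IL-4 than in untreated libraries (log2 1.80 ± 0.35, edgeR adjusted p = 0.00451). In IL-27 over IL-4 the 95% interval of its log2 fold change was -0.57 to 0.86 (edgeR adjusted p = 0.745).

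Ccl24 (NCBI gene 56221) had 0, 6 and 0 counts in IL-27 libraries, 25, 20 and 33 counts in IL-4 libraries and 0, 0 and 4 counts in untreated libraries. A library with 0 counts allows a level of up to 0.0818 to 0.0903 CPM (3 counts), counting error only. The summed counts of 78 in IL-4 and 4 in untreated libraries correspond to a ratio of 18.6 after scaling, with a 95% counting interval of 6.99 to 70.0, and Ccl24 was called higher (edgeR adjusted p = 0.0225). In IL-27 over IL-4 the ratio was 0.0763 (0.0272 to 0.174) and Ccl24 was called lower (edgeR adjusted p = 0.0197). All its counts in IL-27 libraries came from replicate 2 and all in untreated libraries from replicate 3. The call in IL-4 over untreated was lost with the replicate block and without IL-4 replicate 3, untreated replicate 1 or untreated replicate 2 (edgeR adjusted p up to 0.0813). The call in IL-27 over IL-4 was lost without IL-27 replicate 1, IL-27 replicate 3 or IL-4 replicate 3 (edgeR adjusted p up to 0.074).

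Cxcl2 and Cxcl16, the CXC ligands, were both lower with IL-4. Cxcl2 (NCBI gene 20310), a neutrophil attractant, had 2, 27 and 13 counts in IL-27 libraries, 1, 2 and 2 counts in IL-4 libraries and 43, 17 and 22 counts in untreated libraries. IL-27 replicate 1 was as low as the IL-4 libraries, and IL-27 replicate 2 lay inside the untreated range. The ratio of summed counts in IL-4 over untreated was 0.0582, with a 95% counting interval of 0.0184 to 0.141, and Cxcl2 was called lower (edgeR adjusted p = 0.00891). In IL-27 over IL-4 the ratio was 8.33 (3.30 to 26.99), called higher (edgeR adjusted p = 0.0273). That call was lost in 6 of 14 settings, namely with the replicate block and without IL-27 replicate 2, IL-27 replicate 3 or any 1 of the IL-4 libraries (edgeR adjusted p up to 0.123). The ratio in IL-27 over untreated was 0.485 (0.326 to 0.712), while the spread between libraries left the difference uncalled (edgeR adjusted p = 0.3).

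The Cxcl2 promoter window is shown because Cxcl2 is a textbook NF-kappa-B target and its window holds the kappa-B motif. The sequence is RefSeq's, build GRCm38.p6, plus strand, chr5:90903649-90903948, with the motif in capitals.
Cxcl2: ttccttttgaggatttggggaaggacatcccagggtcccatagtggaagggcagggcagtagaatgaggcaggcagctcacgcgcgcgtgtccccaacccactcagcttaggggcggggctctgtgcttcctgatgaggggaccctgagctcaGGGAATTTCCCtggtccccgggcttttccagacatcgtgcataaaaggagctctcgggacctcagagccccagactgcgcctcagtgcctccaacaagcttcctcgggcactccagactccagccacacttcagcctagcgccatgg
The match GGGAATTTCC lies 97 to 88 bases before the start, and a match on the opposite strand overlaps it 1 base further on. RefSeq windows were at hand for 5 of the 10 chemokines, and those of Ccl3 and Ccl22 held none of the 4 motifs searched.

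Cxcl16 (NCBI gene 66102), whose membrane form also binds oxidised lipoprotein, was called in all 3 comparisons. It had 156, 146 and 149 CPM in IL-27 libraries, 46.4, 43.4 and 41.4 CPM in IL-4 libraries and 108, 128 and 106 CPM in untreated libraries. The 3 groups did not overlap, with IL-27 the highest and IL-4 the lowest. Cxcl16 was 2.61-fold lower in IL-4 than in untreated libraries (log2 -1.38 ± 0.10, edgeR adjusted p = 9.31e-06) and 3.44-fold higher in IL-27 than in IL-4 libraries (log2 1.78 ± 0.10, edgeR adjusted p = 5.65e-07). It was also 1.32-fold higher in IL-27 than in untreated libraries (log2 0.40 ± 0.09, edgeR adjusted p = 0.0105), and all 3 differences were called in each of 16 settings.

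**Figure D3:**
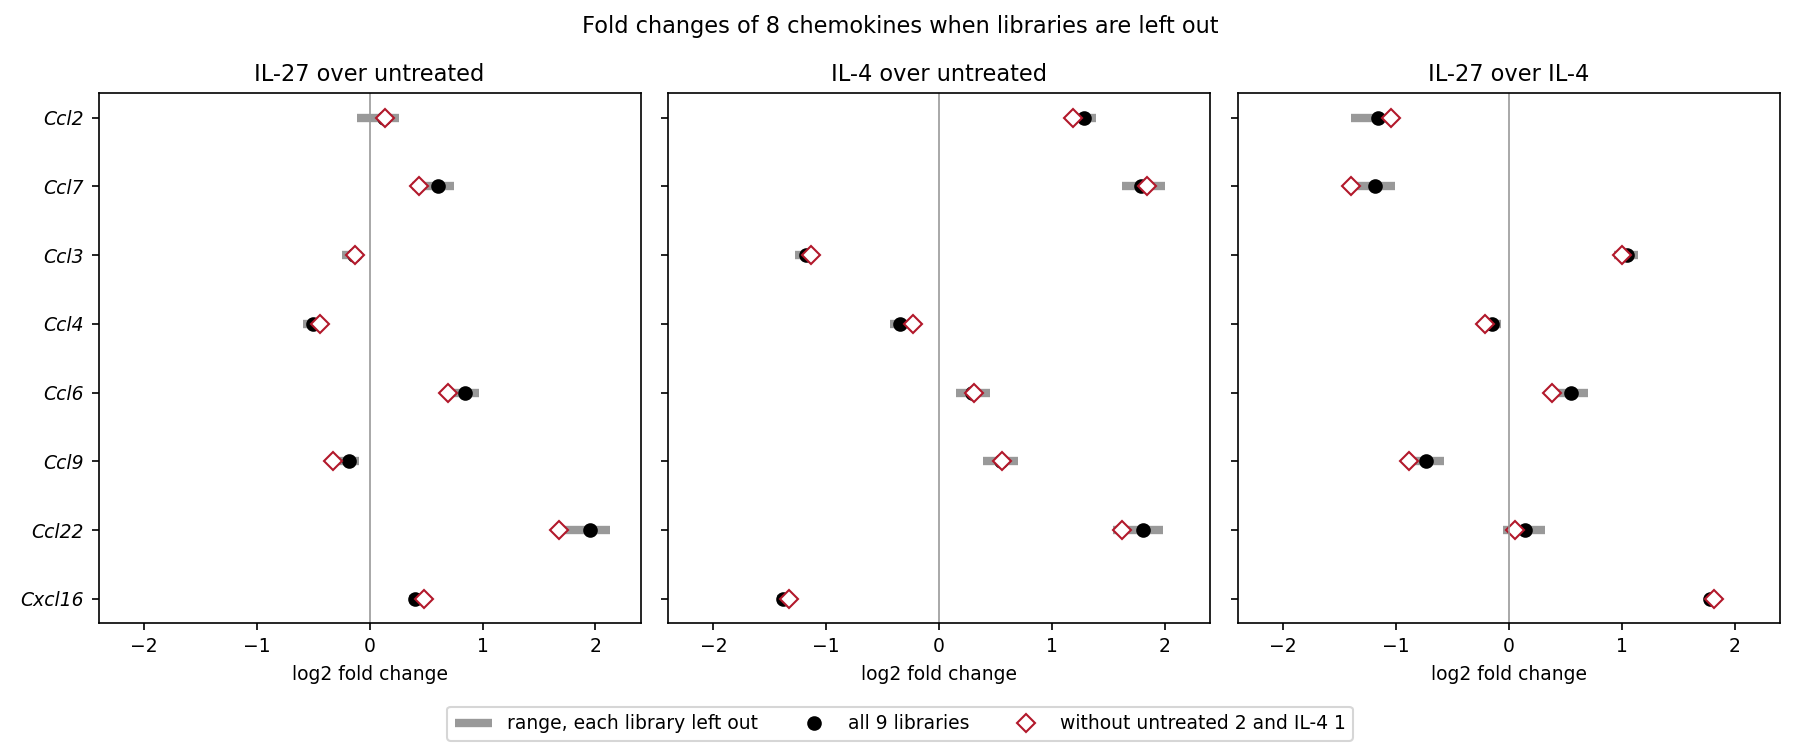
Log2 fold change of 8 chemokines in the 3 comparisons with all 9 libraries (black), without untreated replicate 2 and IL-4 replicate 1 (open diamonds), and the range when each library is left out in turn (grey bars). Ccl24 and Cxcl2 are not drawn, since their fits rest on few counts. Cxcl16 moves least, between 1.74 and 1.82 in IL-27 over IL-4 over all settings.

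Per length, in deposited FPKM, Ccl6 was the most abundant of the 10 in every group, at 181 ± 10.7 FPKM in IL-27 libraries, 129.9 ± 34.3 FPKM in IL-4 libraries and 103 ± 25.9 FPKM in untreated libraries (SD, n = 3 each). In IL-27 libraries the FPKM order went on with Cxcl16 (98.9), Ccl9 (54.4), Ccl3 (43.1), Ccl4 (16.1), Ccl2 (10.4), Ccl7 (8.52), Ccl22 (1.09), Cxcl2 (0.347) and Ccl24 (0.0391). In IL-4 libraries it was Ccl9 (94.8), Cxcl16 (29.9), Ccl2 (23.97), Ccl3 (21.8), Ccl7 (20.4), Ccl4 (18.6), Ccl22 (1.03), Ccl24 (0.516) and Cxcl2 (0.0415). In untreated libraries it was Cxcl16 (75.6), Ccl9 (62.9), Ccl3 (47.9), Ccl4 (22.9), Ccl2 (9.62), Ccl7 (5.71), Cxcl2 (0.722), Ccl22 (0.290) and Ccl24 (0.0280). Neighbours in the order whose libraries overlapped were Ccl2 with Ccl7 and Cxcl2 with Ccl24 in IL-27 libraries. In IL-4 libraries they were Ccl6 with Ccl9 and each neighbouring pair from Ccl2 to Ccl4. In untreated libraries they were Ccl6 with Cxcl16 and Ccl9 with Ccl3.

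The summed FPKM of the 10 was 443, 404 and 394 in IL-27 libraries, 266, 404 and 353 in IL-4 libraries and 350.0, 279 and 357 in untreated libraries. The IL-27 libraries were above the untreated ones, the IL-4 libraries overlapped both, and IL-4 replicate 1 and untreated replicate 2 were the lowest of their groups. Ccl2 and Ccl7 together made up 4.53 ± 0.930% of the sum in IL-27 libraries, 13.2 ± 1.29% in IL-4 libraries and 4.67 ± 0.176% in untreated libraries. Cxcl16 made up 23.9 ± 0.956% in IL-27 libraries, 9.03 ± 1.86% in IL-4 libraries and 23.4 ± 4.14% in untreated libraries. Ccl6, Ccl9 and Cxcl16 were the largest parts of the sum in every group, together 80.9 ± 1.75% in IL-27 libraries, 74.4 ± 2.38% in IL-4 libraries and 73.3 ± 2.11% in untreated libraries.

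**Figure D4:**
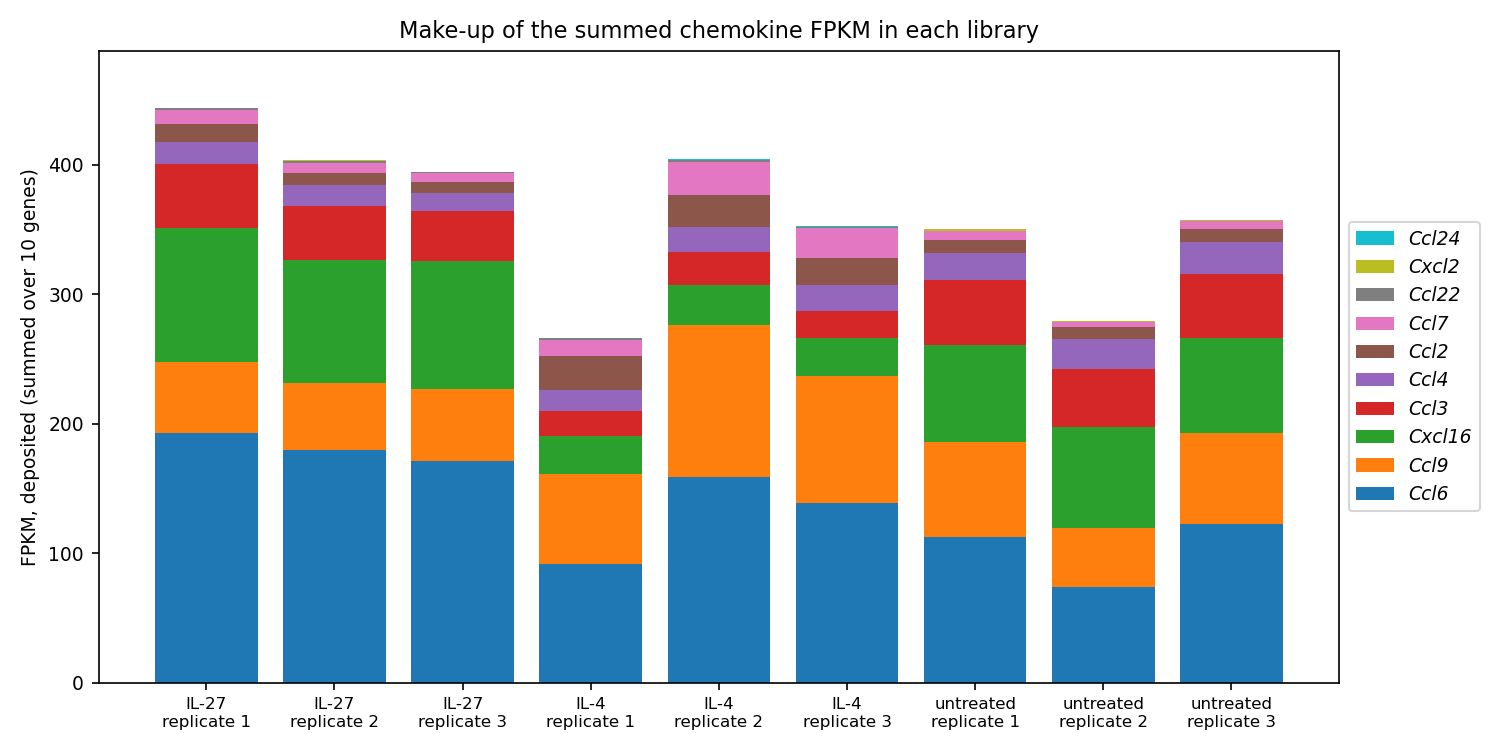
Deposited FPKM of the 10 chemokines stacked for each library, IL-27 at the left, IL-4 in the middle and untreated at the right. Each colour is a gene. The Ccl2 and Ccl7 blocks are tallest and the Cxcl16 block is shortest in the IL-4 libraries, and Ccl22, Cxcl2 and Ccl24 are barely visible.

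The genes whose pattern over the 9 libraries was most like that of each chemokine were ranked by Pearson's r of log2 CPM among 9427 genes. Differences between the groups count in r, and the libraries are shared by all genes. For Cxcl16 they were Pmp22 (r = 0.999), Smad3 (0.998) and Tnfaip2 (0.996). Pmp22 had 215 CPM in IL-27 libraries, 75.6 CPM in IL-4 libraries and 169 CPM in untreated libraries. For Ccl6 the nearest was Gtf2f2 (r = 0.991), for Ccl7 Tcf7l2 (0.990), for Ccl22 Fam98a (0.989), for Ccl3 Ampd3 (0.988), for Ccl9 Atp5c1 (0.986) and for Ccl2 Hspa14 (0.973). Lower values were reached for Ccl24 (Ecd, 0.955), Ccl4 (Zcchc24, 0.938) and Cxcl2 (Setd7, 0.918). Adam10, the protease that sheds Cxcl16 from the membrane, was the second nearest to Ccl9 (0.986). Like Ccl9, it was lowest of its group in IL-4 replicate 1 (233 CPM, against 331 and 309 CPM) and untreated replicate 2 (155 CPM, against 206 and 221 CPM), so the shift these libraries share counts in that r as well. Ccl6, Ccl7 and Ccl22 were also lowest of their groups in these libraries, and the part of the shift in their r was not tested.

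Of 28 other chemokine ligands listed, 20 had a row in the count table and 10 were tested. Of all tested genes 29.2% were called in IL-27 over untreated, 25% in IL-4 over untreated and 39.8% in IL-27 over IL-4. Among the CC ligands, 1 of 5 rose in IL-27 over untreated (Ccl28), 1 of 5 rose in IL-4 over untreated (Ccl17), and in IL-27 over IL-4 Ccl25 was higher and Ccl17 lower. Ccl17, which shares the receptor Ccr4 with Ccl22, had 0, 0 and 0 counts in IL-27 libraries, 44, 31 and 27 counts in IL-4 libraries and 1, 0 and 0 counts in untreated libraries. It was thus counted almost solely in the IL-4 libraries, whereas Ccl22 was present with each cytokine. Like Ccl24, Ccl17 therefore entered the test through the group where it is high. Its calls are not to be set against the shares of all tested genes. The ratio of Ccl17 in IL-4 over untreated was 97.4, with a 95% counting interval of 17.1 to 3883 (edgeR adjusted p = 0.00147). With a floor of 3 counts per library for IL-27, Ccl17 was at least 11.5-fold lower in IL-27 than in IL-4 libraries (edgeR adjusted p = 0.000489). The calls among the CC ligands were the same without untreated replicate 2 and IL-4 replicate 1.

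Ccl28 had 0.858 ± 0.132 CPM in IL-27 libraries and 0.276 ± 0.00434 CPM in untreated libraries, 3.08-fold higher with IL-27 (edgeR adjusted p = 0.0109). Among 5 CXC and CX3C ligands, 1 rose in IL-27 over untreated (Cxcl14), Pf4 rose and Cxcl10 fell in IL-4 over untreated, and in IL-27 over IL-4 Cxcl10, Cxcl12 and Cxcl14 were higher and Pf4 lower. Without untreated replicate 2 and IL-4 replicate 1, 7 of these ligands were tested and those calls were kept. Cxcl9 was then also called higher in IL-27 over untreated, Cxcl12 lower in IL-4 over untreated, and Cx3cl1 and Cxcl9 higher in IL-27 over IL-4. Cxcl10, an interferon-inducible ligand of Cxcr3, had 18, 11 and 8 counts in IL-27 libraries, 1, 0 and 4 counts in IL-4 libraries and 17, 20 and 15 counts in untreated libraries. The IL-4 libraries were below all others and below the filter's cutoff of 0.271 CPM. Cxcl10 thus entered the test through the other groups, and its calls, which rest on few counts, are not to be set against those shares either. Its ratio in IL-4 over untreated was 0.0918 (95% counting interval 0.0286 to 0.228, edgeR adjusted p = 0.00868), and its log2 fold change in IL-27 over untreated was -0.55 ± 0.58 (edgeR adjusted p = 0.51).

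Of 9 receptors of these ligands, 7 had a row and 5 were tested. In IL-27 over untreated 2 rose (Ccr1 and Cxcr1) and 2 fell (Ccr2 and Ccr3), in IL-4 over untreated 2 rose (Ccr1 and Ccr3) and 0 fell, and in IL-27 over IL-4 1 was higher (Cxcr1) and 2 were lower (Ccr2 and Ccr3). Leaving out untreated replicate 2 and IL-4 replicate 1 kept those calls, and Ccr2 was also called higher in IL-4 over untreated and Ccr1 in IL-27 over IL-4. Among all tested genes 29.2% were called in IL-27 over untreated (49.5% without these libraries). In IL-4 over untreated the share was 25% (46.4%), and in IL-27 over IL-4 it was 39.8% (58.3%). Ccr1, the receptor of Ccl3, Ccl6, Ccl7 and Ccl9, averaged 235 ± 5.78 CPM in IL-27 libraries, 173 ± 37.4 CPM in IL-4 libraries and 104 ± 17.2 CPM in untreated libraries (SD, n = 3 each). It was 2.26-fold higher in IL-27 than in untreated libraries (edgeR adjusted p = 0.000567) and 1.66-fold higher in IL-4 than in untreated libraries (edgeR adjusted p = 0.00964).

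Ccr3, the receptor of Ccl24, averaged 0.475 ± 0.0950 CPM in IL-27 libraries, 8.45 ± 2.85 CPM in IL-4 libraries and 3.25 ± 0.352 CPM in untreated libraries. It was 6.81-fold lower in IL-27 than in untreated libraries (edgeR adjusted p = 0.000138) and 2.6-fold higher in IL-4 than in untreated libraries (edgeR adjusted p = 0.00364). Cxcr1, which binds neutrophil-attracting CXC ligands, averaged 2.42 ± 0.483 CPM in IL-27 libraries, 0.288 ± 0.0473 CPM in IL-4 libraries and 0.429 ± 0.112 CPM in untreated libraries. It was 5.61-fold higher in IL-27 than in untreated libraries (edgeR adjusted p = 0.000365). Cxcr2, the receptor of Cxcl2, averaged 0.493 CPM in IL-27 libraries, 0.890 CPM in IL-4 libraries and 0.761 CPM in untreated libraries. It was not called in IL-27 over untreated (log2 -0.62, edgeR adjusted p = 0.313), in IL-4 over untreated (0.729) or in IL-27 over IL-4 (0.138).

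**Figure D5:**
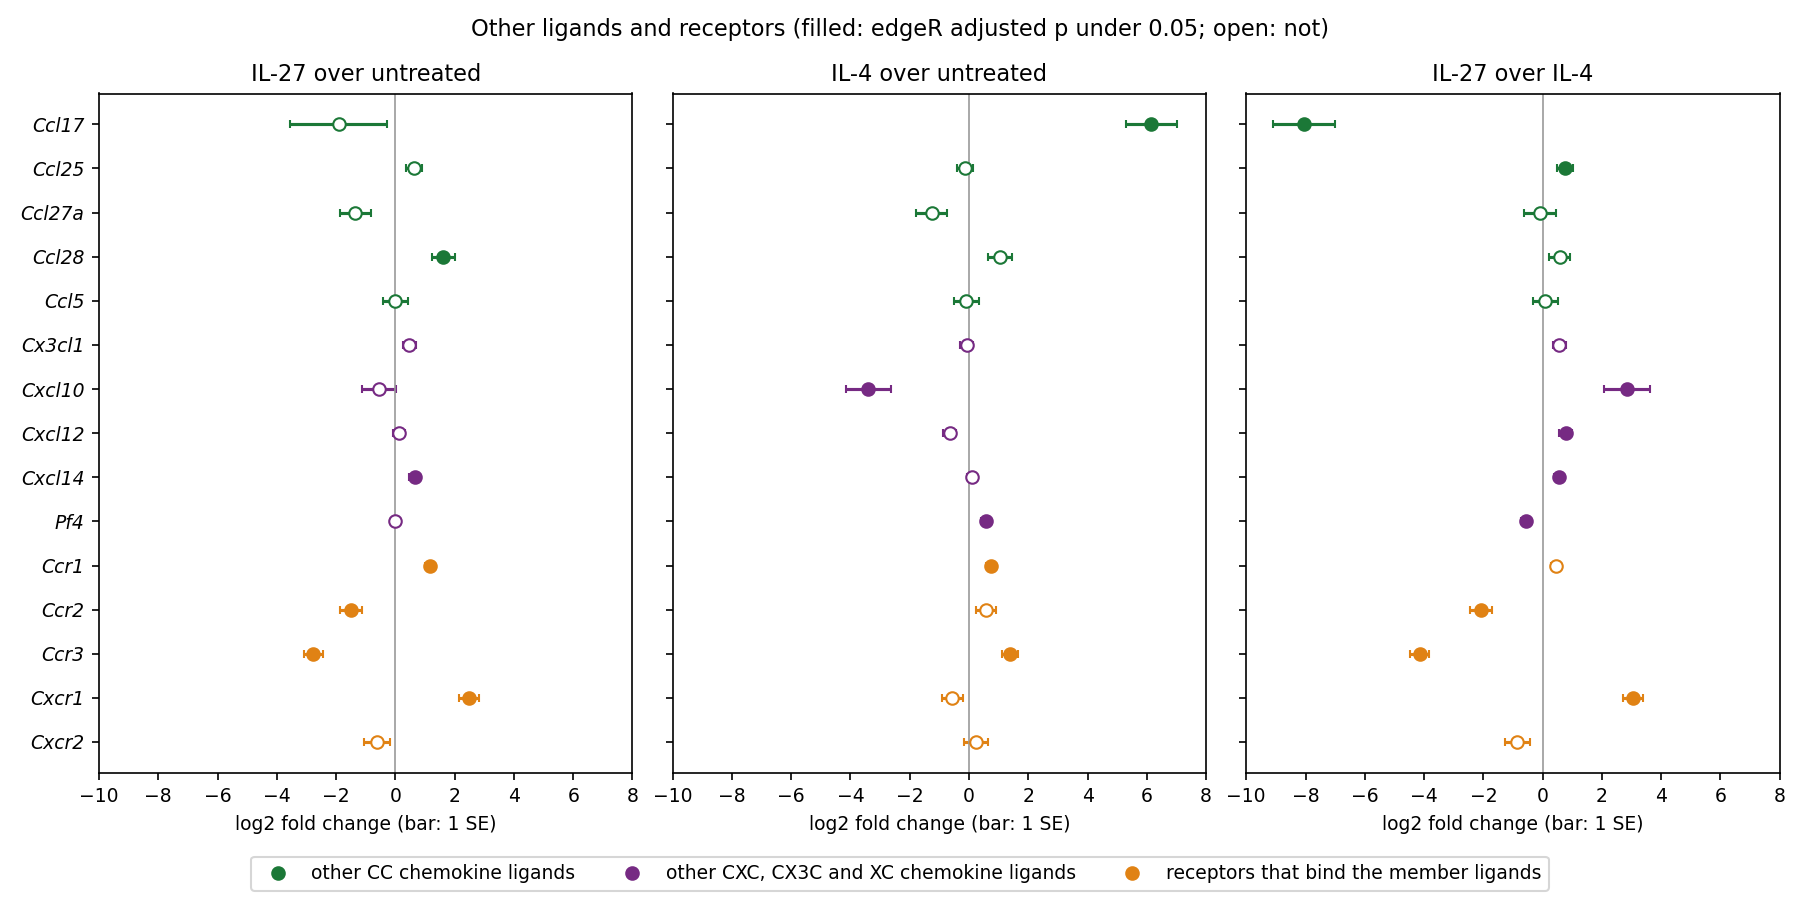
Log2 fold change (point) with its SE (bar) of the 10 tested other chemokine ligands and the 5 tested receptors in the 3 comparisons. Filled points passed an edgeR adjusted p of 0.05. Ccl17 is at or near 0 counts in IL-27 and untreated libraries, so the size of its fitted change is no bound. Ccr3 lies left of 0 in IL-27 over untreated and right of 0 in IL-4 over untreated.

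Among 7 tested proteases that shed or trim chemokines, 2 rose in IL-27 over untreated (Mmp2 and Mmp9), 1 rose (Adam10) and 2 fell in IL-4 over untreated, and 3 were higher (Mmp2, Mmp9 and Mmp14) and 1 lower (Adam10) in IL-27 over IL-4. Without untreated replicate 2 and IL-4 replicate 1, 4 rose and 3 fell in IL-27 over untreated, 2 rose and 4 fell in IL-4 over untreated, and 5 were higher and 2 lower in IL-27 over IL-4. Of all tested genes 29.2%, 25% and 39.8% were called with all libraries, and 49.5%, 46.4% and 58.3% without these 2. Adam10 averaged 174 ± 5.11 CPM in IL-27 libraries, 291 ± 51.6 CPM in IL-4 libraries and 194 ± 34.5 CPM in untreated libraries, and was 1.5-fold higher in IL-4 than in untreated libraries (edgeR adjusted p = 0.0201). Its substrate Cxcl16 was lower there. Mmp14, a membrane-bound matrix protease, averaged 191 ± 12.4 CPM in IL-27 libraries, 68.7 ± 9.41 CPM in IL-4 libraries and 174 ± 13.4 CPM in untreated libraries, 2.53-fold lower in IL-4 than in untreated libraries (edgeR adjusted p = 3.27e-05). Mmp9, which cuts several CXC ligands, was 2.46-fold higher in IL-27 than in untreated libraries (edgeR adjusted p = 0.00178), at 25.8 ± 2.97 CPM in IL-27 libraries against 10.5 ± 1.61 CPM in untreated libraries.

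Of 16 factors of the NF-kappa-B, STAT and IRF families and their inhibitors, 4 rose and 5 fell in IL-27 over untreated, 2 rose and 8 fell in IL-4 over untreated, and 7 were higher and 3 lower in IL-27 over IL-4. Without untreated replicate 2 and IL-4 replicate 1 the counts were 6 and 7, 3 and 11, and 10 and 3 in the same order. Of all tested genes 29.2%, 25% and 39.8% were called with all libraries, and 49.5%, 46.4% and 58.3% without these 2. Irf4, an IL-4-induced factor, averaged 0.794 ± 0.0946 CPM in IL-27 libraries, 52.0 ± 1.99 CPM in IL-4 libraries and 1.77 ± 0.629 CPM in untreated libraries. Tnfaip3, an inhibitor of NF-kappa-B, was the highest in IL-27 libraries (84.4 ± 1.72 CPM) and lower in IL-4 (47.0 ± 1.66 CPM) than in untreated libraries (62.1 ± 1.87 CPM), with an edgeR adjusted p of 0.00197 for IL-27 and 0.00433 for IL-4 over untreated. Other inhibitor genes of the list went the other way with IL-27. Nfkbia, Nfkbie and Nfkbiz were lower in IL-27 than in untreated libraries (edgeR adjusted p = 0.0271, 0.008 and 0.0472). Nfkbib was not called there (edgeR adjusted p = 0.65).

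Markers of other leukocytes were low or rested on 1 gene. Dendritic cell markers summed to 1.53 to 2.72 CPM in IL-27 libraries, 1.33 to 2.03 CPM in IL-4 libraries and 1.77 to 3.42 CPM in untreated libraries. Xcr1 was at 0 in the IL-4 and untreated libraries. T and NK cell markers summed to at most 2.91 CPM and B cell markers to at most 4.66 CPM in any library. Neutrophil markers summed to 54.3 to 57.2 CPM in IL-27 libraries, 58.7 to 63.1 CPM in IL-4 libraries and 100.5 to 119.6 CPM in untreated libraries, mostly Csf3r, with Elane and Retnlg at 0 in IL-27 and untreated libraries and Mpo at 0 in IL-4 and untreated libraries. Csf3r and S100a8 were the 2 tested. Csf3r was 2.24-fold lower in IL-27 than in untreated libraries (edgeR adjusted p = 9e-05). S100a8 went the other way, at 8.32 CPM in IL-27 libraries, 2.28 CPM in IL-4 libraries and 4.09 CPM in untreated libraries, 2.03-fold higher in IL-27 than in untreated libraries (edgeR adjusted p = 0.00542) and 3.64-fold higher in IL-27 than in IL-4 libraries (edgeR adjusted p = 0.000101). Mast cell, basophil and eosinophil markers summed to 14.3 to 16.7 CPM in IL-27 libraries, 36.8 to 45.1 CPM in IL-4 libraries and 39.6 to 42.9 CPM in untreated libraries, nearly all Siglecf, with Cpa3 at 0 in the IL-27 and IL-4 libraries.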

How the data were processed

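The deposited counts are whole reads per gene and library, and the deposited FPKM hold those counts divided by gene length and by the library's total. Reads were processed with fastp, HISAT2 and HTSeq on GRCm39, per the submitters' processing notes, which name no version, strand setting or annotation. Counts were tested in R 4.3.3 with edgeR 4.0.16 (quasi-likelihood F test, TMM factors of 0.918 to 1.06, filterByExpr with a minimum count of 10, all 9 libraries in 1 fit with a term for group), with Benjamini-Hochberg adjustment over the 12587 genes kept. SE was derived from F and is approximate, above all near 0 counts. Ratios of summed counts carry exact 95% binomial intervals after scaling, which cover counting error only. The script was tested on simulated data.

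The alternatives were DESeq2 1.42.0 (size factors, and its Wald test), no filter or a filter of 1 CPM in 3 libraries, the 2 groups compared alone, the replicate block, each library left out in turn, and untreated replicate 2 with IL-4 replicate 1 left out. All 10 chemokines are described, with up to 4 tested genes of each list by smallest adjusted p and, for each chemokine, the genes most like it among named genes with a mean of at least 5 CPM. Other genes were named after their values were seen. A few genes of these families were kept off the lists and are not reported here. Counts over the 8 chemokines above the cutoff in every library, and list counts without the 2 libraries, were added after the data were seen. The members, the gene lists and the marker lists were chosen with earlier results of these data known. Promoter sequences are RefSeq's (GRCm38.p6), since no coordinates of the files' build were used.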

Additional observations from a re-analysis of the deposited data

How the results depend on the processing

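Of 30 fold changes (10 chemokines in 3 comparisons), 17 kept their direction and their side of the threshold in every setting run, and of 472 recomputed values 430 did, 30 lost the call, 6 gained it and 6 changed sign. None of the values that changed sign was called. Ccl2 in IL-27 over untreated was -0.12 without IL-27 replicate 1 (up to 0.26 with another library left out), and Ccl22 in IL-27 over IL-4 was -0.051 without IL-27 replicate 2 (up to 0.32). Ccl24 in IL-27 over untreated was -3.59 without IL-27 replicate 2, -0.06 without untreated replicate 1, -0.02 without untreated replicate 2 and -0.02 without untreated replicate 2 and IL-4 replicate 1 (up to 4.09 without untreated replicate 3). Leaving out those 2 libraries gave 6313 called genes in IL-27 over untreated (3670 with all libraries) and 5909 in IL-4 over untreated (3145), and the cause was not tested. Leaving out 1 library at a time gave 2580 to 4618 called genes in IL-27 over untreated, 2313 to 3666 in IL-4 over untreated and 3859 to 5700 in IL-27 over IL-4. Called chemokines, with Ccl24 and Cxcl2 included, were then 3 to 5, 6 to 9 and 5 to 8 of 10 in the same order. In IL-27 over IL-4 the 5 came without IL-27 replicate 3 and without IL-4 replicate 3. Of 9 same-number pairs of libraries, 1 had deviations correlated above 0.1. The shift shared by untreated replicate 2 and IL-4 replicate 1 enters these values, so whether replicate numbers pair the libraries cannot be told from them. The replicate block gave 2899, 2308 and 4216 called genes and 4, 6 and 6 called chemokines in the same order. Ccl24 and Cxcl2 were left out by the filter of 1 CPM. Depth limits these 2 genes and Ccl22 most.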

Other observations

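Of 18 components of chemokine receptor signalling, such as G proteins, arrestins and regulators of G-protein signalling, 2 rose and 9 fell in IL-27 over untreated, 1 rose and 1 fell in IL-4 over untreated, and 3 were higher and 10 lower in IL-27 over IL-4. Without untreated replicate 2 and IL-4 replicate 1 the counts were 5 and 13, 4 and 6, and 3 and 15 in the same order. Of all tested genes 29.2%, 25% and 39.8% were called with all libraries, and 49.5%, 46.4% and 58.3% without these 2. The median log2 fold change of the 18 components was -0.56 in IL-27 over untreated, -0.03 in IL-4 over untreated and -0.45 in IL-27 over IL-4, against 0.00, -0.01 and 0.01 over all genes tested. Rgs1, which ends G-protein signals, averaged 228 ± 15.0 CPM in IL-27 libraries and 113 ± 15.8 CPM in untreated libraries, 2.02-fold higher (edgeR adjusted p = 0.00106). Its relatives Rgs2 and Rgs18 were instead lower in IL-27 than in untreated libraries (edgeR adjusted p = 0.00247 and 0.0229). Rgs19 was not called there (edgeR adjusted p = 0.0583). Arrb1, an arrestin that uncouples receptors, averaged 159 ± 1.49 CPM in IL-27 libraries and 281 ± 30.8 CPM in untreated libraries, 1.76-fold lower (edgeR adjusted p = 0.000374). Pik3cg, the kinase that receptors of this family engage through G proteins, averaged 63.8 ± 3.90 CPM in IL-27 libraries and 101 ± 2.19 CPM in untreated libraries, 1.58-fold lower (edgeR adjusted p = 0.00023). Dock2, a Rac activator needed for leukocyte migration, averaged 306 ± 15.4 CPM in IL-27 libraries and 479 ± 63.7 CPM in untreated libraries, 1.56-fold lower (edgeR adjusted p = 0.00351).

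Among 7 regulators of the decay of AU-rich mRNAs, a class that holds many chemokine transcripts, 0 rose and 2 fell in IL-27 over untreated, 3 rose and 1 fell in IL-4 over untreated, and 1 was higher and 4 lower in IL-27 over IL-4. Without the same 2 libraries they were 1 and 2, 4 and 1, and 1 and 5. Of all tested genes 29.2%, 25% and 39.8% were called with all libraries, and 49.5%, 46.4% and 58.3% without these 2. Zfp36, also known as tristetraprolin, averaged 56.2 ± 3.63 CPM in IL-27 libraries, 143.7 ± 5.72 CPM in IL-4 libraries and 88.6 ± 5.33 CPM in untreated libraries. It was 1.57-fold lower in IL-27 than in untreated libraries (edgeR adjusted p = 0.000387) and 1.62-fold higher in IL-4 than in untreated libraries (edgeR adjusted p = 0.000318). Its relative Zfp36l1 averaged 21.0 ± 2.90 CPM in IL-27 libraries, 77.6 ± 1.37 CPM in IL-4 libraries and 79.1 ± 0.866 CPM in untreated libraries, 3.77-fold lower in IL-27 than in untreated libraries (edgeR adjusted p = 1.97e-06).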
